A study of Arabidopsis thaliana with 24 samples.

Results

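The genes described are 10 sugar transporters of Arabidopsis thaliana, chosen by gene identifier out of the 33044 genes of the deposited expression table. They are the plasma membrane monosaccharide importers STP1, STP4, STP7, STP13 and STP14, the sucrose transporters SUC2 and SUC4, and the vacuolar transporters ERDL6, TMT1 and TMT2. All 10 had a mean of at least 1 FPKM in at least 1 group and were tested, so no member was lost to the filter on low values. FPKM is the number of fragments counted for a gene, scaled by the length of the gene and by the total of the library.

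The study sequenced RNA of the double mutant dpe2/phs1, in which the cytosolic disproportionating enzyme DPE2 and the plastidial glucan phosphorylase PHS1 are disrupted, and of the wild type Col-0. The 24 libraries form 8 groups of 3. Whole shoots of dpe2/phs1 (dP) and Col-0 (wP) were taken at 3 weeks in the Prior Period. At 5 weeks, in the period of reduced granule number that the labels call the Retard Period, young leaves (dY and wY) and mature leaves (dM and wM) were taken with their petioles. Whole shoots of dpe2/phs1 (dR) and Col-0 (wR) were taken at 7 weeks in the Recovery Period. All plants grew on soil in the same regime of light and dark and were harvested in the light. The alleles of dpe2/phs1 and the number of plants per library are not given in the sources used here. Shoots and leaves differ in tissue as well as in age, so Y and M were set only against each other, and R only against P.

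Sugar that leaves a mesophyll cell passes through the cell wall space before it is taken up again or loaded into the phloem. STP proteins are proton symporters that take monosaccharides up from the cell wall space, and SUC2 loads sucrose into the companion cells of the phloem. TMT1 and TMT2 are proton antiporters that fill the vacuole with sugar, whereas ERDL6 and SUC4 are known at the vacuolar membrane as carriers that release glucose and sucrose to the cytosol. The group therefore holds transporters of both directions at the vacuole. In dpe2 mutants the cytosolic use of the maltose released from starch is blocked, so that maltose accumulates in the leaf.

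The bases before the annotated start are shown for STP13, STP14 and TMT2, the members that were higher in the mutant in P, Y and M, and for STP1, the member that was lower in all of these. The sequences are those of the RefSeq assembly TAIR10.1, in which the starts and ends of all 10 genes are identical to those in the deposited table (built on TAIR10 per the labels). Each run holds 250 bases, 5′ to 3′ on the strand of the gene and ending at the base before its annotated start. Capitals mark matches, on either strand, to TTGAC (the core of the W-box), ACGTG (the core of the abscisic acid response element) or TATCCA (an element of sugar-starvation-responsive promoters, known from rice).
STP13: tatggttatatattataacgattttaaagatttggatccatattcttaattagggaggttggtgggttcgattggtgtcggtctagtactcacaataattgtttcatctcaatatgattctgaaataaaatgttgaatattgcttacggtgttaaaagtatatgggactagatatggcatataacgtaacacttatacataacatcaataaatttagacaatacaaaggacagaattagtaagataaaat
STP14: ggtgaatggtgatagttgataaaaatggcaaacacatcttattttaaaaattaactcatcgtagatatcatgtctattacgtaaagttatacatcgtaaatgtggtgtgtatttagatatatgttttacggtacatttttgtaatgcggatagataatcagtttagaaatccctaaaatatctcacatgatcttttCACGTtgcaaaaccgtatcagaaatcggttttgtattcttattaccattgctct
TMT2: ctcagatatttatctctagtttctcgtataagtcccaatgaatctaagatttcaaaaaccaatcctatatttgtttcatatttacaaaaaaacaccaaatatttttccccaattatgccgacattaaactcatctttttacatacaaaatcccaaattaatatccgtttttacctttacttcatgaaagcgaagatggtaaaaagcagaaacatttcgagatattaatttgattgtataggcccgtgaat
STP1: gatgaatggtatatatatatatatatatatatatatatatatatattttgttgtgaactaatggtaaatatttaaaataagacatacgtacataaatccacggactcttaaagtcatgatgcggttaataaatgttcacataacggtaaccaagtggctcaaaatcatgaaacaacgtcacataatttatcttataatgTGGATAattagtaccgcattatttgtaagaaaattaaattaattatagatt
These windows lie at chr5:9247541-9247790 (reverse strand) for STP13, chr1:29012097-29012346 (reverse strand) for STP14, chr4:16799824-16800073 (reverse strand) for TMT2 and chr1:3776986-3777235 (forward strand) for STP1. The windows of STP13 and TMT2 held no match. That of STP14 held 1 ACGTG match, on the opposite strand, and that of STP1 held 1 TATCCA match, also on the opposite strand. Among the 19456 windows of the same length before tested nuclear genes, 44.5% held TTGAC, 23.3% ACGTG and 14.2% TATCCA. None of these letters was thus shared by the 3 genes that were higher together. Of the other members, STP4 (2) and TMT1 (1) held TTGAC, SUC2 (2), STP7 (3) and ERDL6 (1) held ACGTG, STP7 (1) and ERDL6 (1) held TATCCA, and SUC4 held none. In SUC2 and in STP7 a pair of ACGTG matches overlapped, as the palindrome CACGTG is read on both strands. The window of TMT2 runs into AT4G09145, that of TMT1 into AT1G05607 and that of STP7 into AT4G02055 and AT4G02060.

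The libraries held 17504383 to 27859805 fragments (median 19438279), recovered from the steps of the FPKM values. A member had at least 69 fragments in every library. Expression was compared with limma on log2(FPKM + 1) in a single fit over the 24 libraries and 19575 genes, and a gene was called at a Benjamini-Hochberg adjusted p under 0.05. Fold changes on this scale understate the change of low genes. The libraries are called biological replicates by the study, but the sources used here do not say whether they came from separate cultivations, so the p-values measure the spread between these libraries. The disrupted genes served as a check of the labels. PHS1 averaged 21.5 FPKM in dP against 145 FPKM in wP, 25.4 FPKM in dY against 169 FPKM in wY, and 10.6 FPKM in dM against 126 FPKM in wM. DPE2 was also lower in the mutant in these periods (log2 fold change -1.14 in P, -1.56 in Y and -1.30 in M). In the Recovery Period neither gene separated the genotypes, since PHS1 averaged 22.7 FPKM in dR against 26.0 FPKM in the libraries labelled wR, and DPE2 36.6 FPKM in dR against 30.3 FPKM in those labelled wR (adjusted p = 0.65 and 0.12). Leaving out wR replicate 1 made DPE2 higher in dR (0.53, adjusted p = 0.010), and leaving out wR replicate 3 made PHS1 lower in dR (-0.45, adjusted p = 0.025). The libraries labelled wR also stood apart in their dependence on gene length. The median deviation of the longest decile of genes minus that of the shortest decile was -2.01 to -0.90 (log2) in the libraries labelled wR. It was -0.52 to 0.10 in dR, -0.63 to -0.22 in dM, 0.37 to 0.69 in wM and 0.03 to 0.97 in the remaining libraries. For the members, DPE2 and PHS1, dR against the libraries labelled wR is therefore given with and without a correction for this trend. The libraries of dM and wM also differed in this trend. Their comparison is given as deposited, and turns of direction after removal of the trend are listed at the end. For other genes and for summed values, results that use these libraries are as deposited only.

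The members differed in level and in pattern. SUC2 was the most even member, between 55.3 and 96.8 FPKM over all 24 libraries. STP13 covered the widest range, between 3.35 and 193 FPKM. SUC4 was the lowest member, between 1.63 and 5.75 FPKM. The summed FPKM of the 10 genes averaged 461 ± 17.9 in dM and 201 ± 7.00 in wM (SD, n = 3 each), 294 ± 27.7 in dY and 209 ± 5.97 in wY, 216 ± 0.531 in dP and 198 ± 5.95 in wP, and 294 ± 13.5 in dR against 312 ± 22.4 in the libraries labelled wR. The libraries of dM, dY and dP lay above those of their Col-0 partners, and those of dR overlapped with those labelled wR. In P the members went both ways, with 4 called higher and 3 lower in dP. STP13, one of the higher ones, averaged 21.3 FPKM in dP against 3.57 FPKM in wP.

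**Figure D1:**
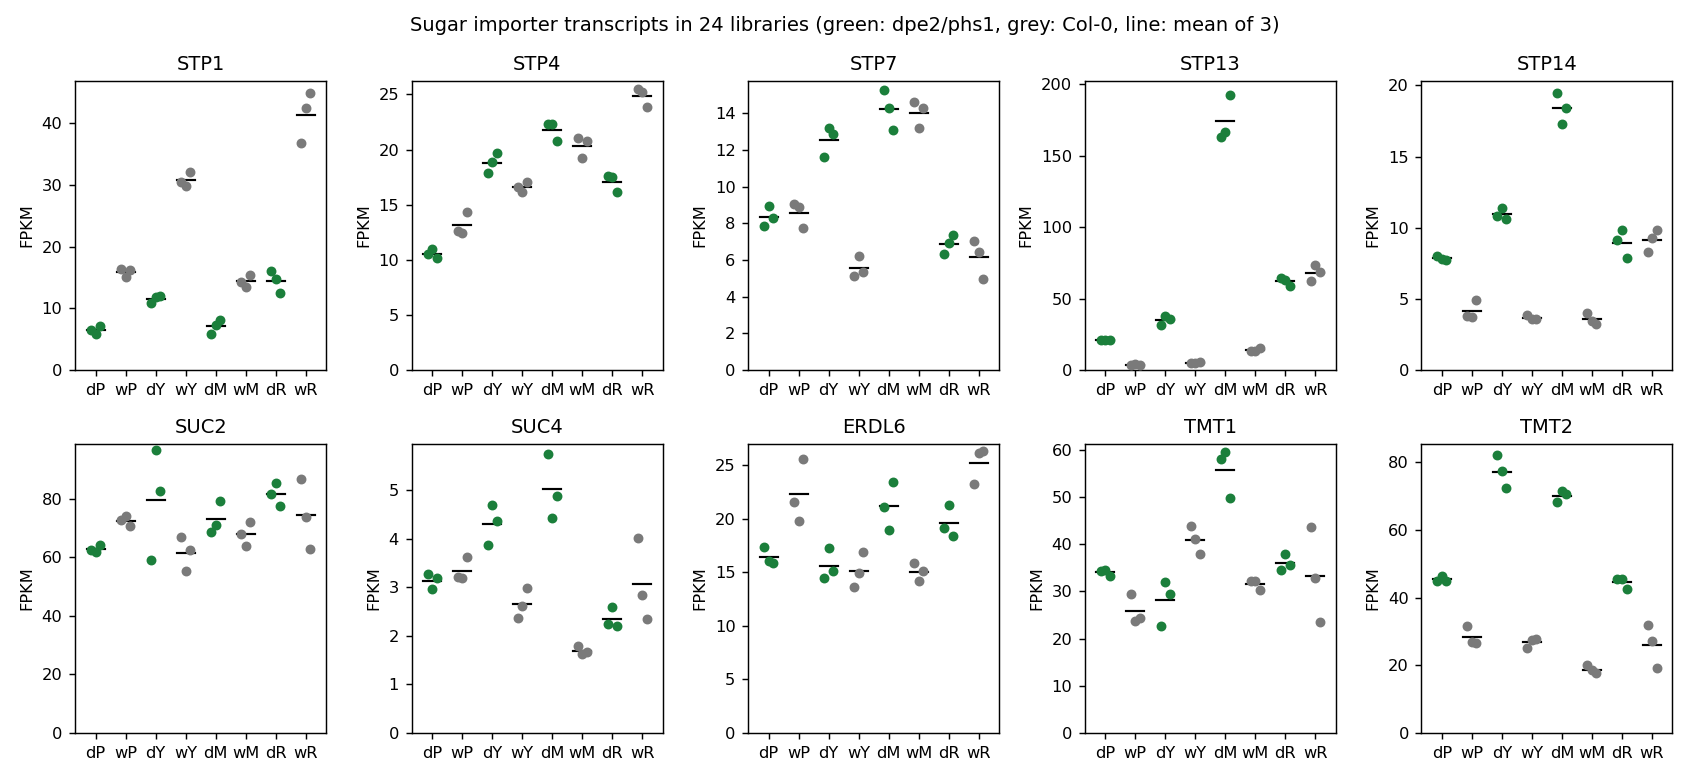
FPKM (y axis, linear from 0, with its own scale for each gene) of the 10 transporters in 24 libraries, where each point is a library, the line is the mean of 3, and on the x axis dpe2/phs1 (green) stands left of Col-0 (grey) for P, Y, M and R. STP13 reached 163 to 193 FPKM in dM against 13.5 to 15.2 FPKM in wM, and STP1 lay lower in dpe2/phs1 in every period.

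The comparison of dpe2/phs1 with Col-0 asks whether the loss of DPE2 and PHS1 goes with a change in sugar transporters in each period. In P, 4 of the 10 members were higher and 3 lower in dP, where 39.2% of all tested genes were called, 24.3% higher and 14.9% lower. In Y, 6 were higher and 2 lower in dY (53.6% of all genes called, 34.6% higher and 19.1% lower). In M, 6 were higher and 1 lower in dM (69.1% of all genes, 36.6% higher and 32.5% lower). In R, 1 was higher and 3 lower in dR than in the libraries labelled wR (56.8% of all genes, 31.6% higher and 25.2% lower). The counts of 7 in M and 4 in R are at or under what the shares of all genes give for 10 genes, so the number of called members is not by itself a result. The median log2 fold change of the members was -0.049 in P, 0.44 in Y, 0.63 in M and -0.080 in R, beside 0.058, 0.15, 0.048 and 0.047 over all genes. STP13, STP14 and TMT2 were higher and STP1 lower in P, in Y and in M. Each of the 10 members was called in at least 1 of these periods. The shares of all genes that meet these joint conditions were not counted, so these counts are not by themselves a result.

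**Figure D2:**
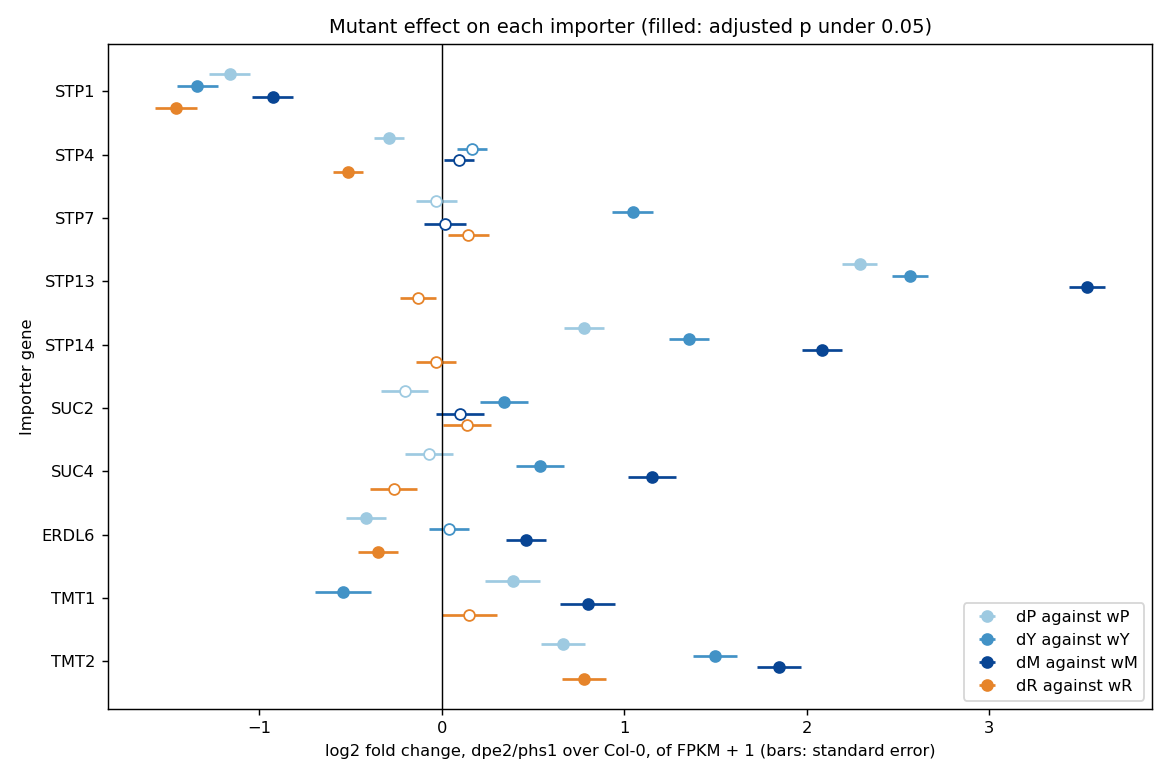
Log2 fold change of FPKM + 1, dpe2/phs1 over Col-0 (x axis), of each transporter in P, Y, M and R, with the standard error of the limma fit and filled points for an adjusted p under 0.05. STP13 lies at 2.29, 2.57 and 3.54 in P, Y and M and at -0.13 in R, and STP1 lies between -1.45 and -0.93 in all 4 periods.

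STP13 (AT5G26340, chromosome 5, 9243398 to 9247540, reverse strand) is a high-affinity hexose importer known for its induction in plants under pathogen attack and in programmed cell death. In P it had 21.3, 21.4 and 21.2 FPKM in dP, against 3.35, 4.003 and 3.36 FPKM in wP. In Y it had 31.9, 37.7 and 35.9 FPKM in dY, against 4.85, 4.72 and 5.75 FPKM in wY. In M it had 163, 166 and 193 FPKM in dM, against 13.5, 13.5 and 15.2 FPKM in wM. All mutant libraries lay above all Col-0 libraries in each of these periods, with mean ratios of 5.96, 6.89 and 12.4. The log2 fold changes were 2.29 ± 0.098 (SE) in P, 2.57 in Y and 3.54 in M (limma, adjusted p 1.13e-13, 1.23e-15 and 3.23e-18). In R it had 64.6, 63.2 and 58.6 FPKM in dR, against 62.1, 73.7 and 68.7 FPKM in the libraries labelled wR, and the groups overlapped (log2 fold change -0.13, adjusted p = 0.27). STP13 took 73.8% of the summed FPKM of the 5 STP members in dM against 21.2% in wM, and 39.5% in dY against 8.25% in wY. The shares were 39.0% in dP against 7.90% in wP, and 56.7% in dR against 45.5% in the libraries labelled wR. They leave out the STP genes that are not members, such as STP3, which averaged 62.7 FPKM in dM and 28.5 FPKM in wM.

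The difference in the mutant effect between R and P was also tested, with contrasts chosen after the values were seen. Of all genes, 51.9% were called for this difference, 25.3% higher and 26.6% lower, and 71.6% between wR and wP, 33.0% higher and 38.6% lower. STP13 averaged 68.2 FPKM in the libraries labelled wR against 3.57 FPKM in wP (log2 fold change 3.92, adjusted p 2.10e-18), and 62.1 FPKM in dR against 21.3 FPKM in dP (1.501, adjusted p 1.27e-10). The mutant effect in R was lower than that in P by 2.42 ± 0.14 on the log2 scale (SE, limma, adjusted p 2.21e-11). This difference stayed past the threshold under every setting tried, including the removal of the gene length trend. The study reports delayed flowering of dpe2/phs1 and regards the separation of Col-0 in R as probably related to flowering. Genotype and developmental stage thus cannot be told apart in this difference. The summed flower markers were 0.98 to 1.32 FPKM in the libraries labelled wR and 0.44 to 1.19 FPKM in wP. PHS1 averaged 26.0 FPKM in the libraries labelled wR against 145 FPKM in wP. Whether the label of these libraries is right was not tested.

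STP14 (AT1G77210, chromosome 1, 29008901 to 29012096, reverse strand), a galactose importer, was also higher in the mutant in P, Y and M. It had 8.04, 7.85 and 7.71 FPKM in dP, against 3.84, 3.77 and 4.97 FPKM in wP. In young leaves it had 10.9, 11.4 and 10.6 FPKM in dY, against 3.86, 3.58 and 3.56 FPKM in wY. In mature leaves it had 19.5, 17.3 and 18.4 FPKM in dM, against 4.04, 3.47 and 3.27 FPKM in wM. No mutant library overlapped with Col-0 in P, Y or M, and the log2 fold changes were 0.78 ± 0.11, 1.36 and 2.08 (adjusted p 7.90e-06, 5.95e-10 and 1.87e-13). In R it had 9.16, 9.83 and 7.87 FPKM in dR, against 8.31, 9.30 and 9.87 FPKM in the libraries labelled wR, which overlapped (-0.031, adjusted p = 0.83). As with STP13, the mutant effect was lower in R than in P, by 0.81 ± 0.15 on the log2 scale (adjusted p 0.000232). It averaged 9.16 FPKM in the libraries labelled wR against 4.19 FPKM in wP.

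STP1 (AT1G11260, chromosome 1, 3777236 to 3780823, forward strand), a monosaccharide importer known from guard cells and seedlings, was the member that fell in dpe2/phs1 throughout. It had 6.59, 5.89 and 7.16 FPKM in dP, against 16.3, 15.02 and 16.2 FPKM in wP. In young leaves it had 10.9, 11.9 and 12.03 FPKM in dY, against 30.5, 29.9 and 32.0 FPKM in wY. In mature leaves it had 5.84, 7.39 and 8.21 FPKM in dM, against 14.2, 13.5 and 15.4 FPKM in wM. Recovery shoots had 16.1, 14.8 and 12.6 FPKM in dR, against 36.7, 42.5 and 44.9 FPKM in the libraries labelled wR. The groups did not overlap in any period, and the Col-0 means were 2.42, 2.66 and 2.01 times the mutant means in P, Y and M. The mean of the libraries labelled wR was 2.86 times that of dR. Log2 fold changes were -1.16 ± 0.11, -1.34, -0.93 and -1.45 (limma, adjusted p 5.79e-08, 1.54e-09, 2.45e-07 and 1.99e-09). STP1 made up 3.02% of the summed FPKM of the STP members in dM against 21.7% in wM, a sum without STP3 and the other STP genes. Reads of STP1 and of AT1G11270, which overlaps it on the opposite strand over 438 bases and had group means of 1.24 to 5.01 FPKM, cannot be told apart there, as no strand setting is given.

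STP7 (AT4G02050, chromosome 4, 898307 to 901072, reverse strand), which imports pentoses such as arabinose and xylose, differed between the genotypes in young leaves. It had 11.6, 13.2 and 12.8 FPKM in dY, against 5.15, 6.22 and 5.34 FPKM in wY, with no overlap (log2 fold change 1.05 ± 0.11, adjusted p 7.50e-08). In mature leaves it had 15.2, 14.3 and 13.1 FPKM in dM, against 14.6, 13.2 and 14.3 FPKM in wM. The groups overlapped in M (0.018, adjusted p = 0.90), in P (-0.030, adjusted p = 0.86) and in R (0.15, adjusted p = 0.28). STP7 overlaps MCM7 (AT4G02060) over 437 bases and AT4G02040 over 64 bases on the opposite strand, with the same limit on its reads, and MCM7 had group means of 3.02 to 18.1 FPKM.

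STP4 (AT3G19930, chromosome 3, 6934568 to 6937197, forward strand), a monosaccharide importer of sink tissues, was lower in the mutant shoots. It fell in P, with 10.5, 11.03 and 10.2 FPKM in dP, against 12.7, 12.4 and 14.3 FPKM in wP (log2 fold change -0.29 ± 0.082, adjusted p = 0.00776). This call was lost in 1 of the 6 fits that leave out a library, the one without wP replicate 3 (-0.23, adjusted p = 0.050). It also fell in R, with 17.6, 17.5 and 16.1 FPKM in dR, against 25.5, 25.2 and 23.8 FPKM in the libraries labelled wR (-0.52, adjusted p 2.15e-05), and the groups did not overlap in P or R. In leaves it averaged 18.8 FPKM in dY against 16.6 FPKM in wY, and 21.8 FPKM in dM against 20.3 FPKM in wM, and neither difference passed the test (adjusted p = 0.088 and 0.31).

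SUC2 (AT1G22710, chromosome 1, 8030587 to 8033156, reverse strand), the phloem-loading sucrose symporter, differed between the genotypes by at most 0.34 (log2) in any period. Its means lay between 61.6 FPKM in wY and 81.5 FPKM in dR, and in the order of the 8 means every neighbouring pair overlapped. In Y it had 59.1, 96.8 and 82.8 FPKM in dY, against 66.8, 55.3 and 62.6 FPKM in wY. The dY libraries spread over both sides of the wY libraries, and the call in Y (log2 fold change 0.34 ± 0.13, adjusted p = 0.034) was lost in 4 of the 6 fits that leave out a library. It was 0.19 (adjusted p = 0.24) without dY replicate 2 and 0.54 (adjusted p 0.000492) without dY replicate 1, and median-of-ratios scaling also ended it (0.17, adjusted p = 0.33). In P all 3 dP libraries (61.8 to 64.1 FPKM) lay under the wP libraries (70.6 to 74.2 FPKM), a difference that did not pass the test (-0.20, adjusted p = 0.23). In a limma fit restricted to dP and wP this difference passed (adjusted p = 0.035). Markers of phloem companion cells and sieve elements were also measured. Their summed FPKM was 182 to 195 in dY against 121 to 123 in wY, with 4 of 6 markers higher and 1 lower, and 110 to 114 in dP against 151 to 161 in wP, with 3 of 6 lower. In M the sum was 102 to 111 in dM against 174 to 181 in wM, with 2 of 6 markers higher and 2 lower, while SUC2 averaged 73.0 FPKM in dM and 68.0 FPKM in wM. The lower ones in M were PP2-A1 (53.3 FPKM in dM against 101 FPKM in wM) and AHA3 (26.8 FPKM in dM against 51.5 FPKM in wM), whereas APL was higher (10.6 FPKM in dM against 7.998 FPKM in wM). In whole organs, fewer cells of a type and less RNA per cell cannot be told apart, and the part of these markers in the level of SUC2 was not tested.

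SUC4 (AT1G09960, chromosome 1, 3243986 to 3247216, forward strand), the vacuolar sucrose carrier, rose in the leaves of dpe2/phs1. It had 3.87, 4.69 and 4.36 FPKM in dY, against 2.37, 2.62 and 2.98 FPKM in wY. In mature leaves it had 5.75, 4.43 and 4.88 FPKM in dM, against 1.80, 1.63 and 1.67 FPKM in wM. The groups did not overlap in either leaf age, and the log2 fold changes were 0.54 ± 0.13 in Y and 1.15 in M (adjusted p = 0.00148 and 7.07e-08). In P it averaged 3.14 FPKM in dP and 3.34 FPKM in wP, and in R 2.35 FPKM in dR against 3.07 FPKM in the libraries labelled wR, with overlapping libraries in both. Without wR replicate 3 it was called lower in R (-0.39, adjusted p = 0.018), against -0.26 (adjusted p = 0.090) with all libraries.

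TMT2 (AT4G35300, chromosome 4, 16795775 to 16799823, reverse strand), a sugar antiporter of the vacuolar membrane, was higher in dpe2/phs1 in all periods as deposited. It had 45, 46.3 and 44.9 FPKM in dP, against 31.6, 26.9 and 26.5 FPKM in wP. In young leaves it had 82.3, 77.3 and 72.3 FPKM in dY, against 25.1, 27.5 and 27.7 FPKM in wY. In mature leaves it had 68.4, 71.4 and 70.6 FPKM in dM, against 19.96, 18.6 and 17.7 FPKM in wM. None of these groups overlapped, and the log2 fold changes were 0.67 ± 0.12, 1.496 and 1.85 (limma, adjusted p 0.000158, 6.24e-10 and 8.02e-12). In R it had 45.6, 45.6 and 42.5 FPKM in dR, against 31.8, 27.3 and 19.1 FPKM in the libraries labelled wR (0.78, adjusted p 1.67e-05), and this call was lost once the gene length trend was removed (0.19, adjusted p = 0.11, with lengths fitted to the FPKM steps). TMT2 overlaps AT4G35295 over 449 bases and AT4G09145 over 189 bases on the opposite strand, and these had group means of at most 1.18 FPKM.

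TMT1 (AT1G20840, chromosome 1, 7244939 to 7248494, reverse strand) moved in opposite directions in the leaf ages. It fell in young leaves, with 22.8, 32.0 and 29.4 FPKM in dY, against 43.9, 41.0 and 37.96 FPKM in wY. It rose in mature leaves, with 58.0, 59.5 and 49.9 FPKM in dM, against 32.1, 32.2 and 30.3 FPKM in wM. The log2 fold changes were -0.54 ± 0.15 in Y and 0.80 in M (adjusted p = 0.00466 and 7.45e-05), and neither pair of groups overlapped. In P it had 34.2, 34.6 and 33.2 FPKM in dP, against 29.5, 23.7 and 24.4 FPKM in wP. That call (0.39, adjusted p = 0.046) was lost in 5 of the 6 fits without a library and under median-of-ratios scaling (0.30, adjusted p = 0.11). In R it averaged 36.0 FPKM in dR against 33.3 FPKM in the libraries labelled wR with overlap (log2 fold change 0.15, adjusted p = 0.41), and without wR replicate 1 it was called at 0.36 (adjusted p = 0.028). TMT2 took 73.4% of the summed FPKM of TMT1 and TMT2 in dY against 39.6% in wY, and 55.8% in dM against 37.3% in wM. TMT1 shares 40 bases with MCD1 (AT1G20830; 10.12 to 24.2 FPKM) and 204 bases with AT1G05607 (0 FPKM in every group) on the opposite strand.

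ERDL6 (AT1G75220, chromosome 1, 28229026 to 28233134, reverse strand), the vacuolar glucose exporter, was lower in the mutant shoots and higher in its mature leaves. It had 17.4, 16.1 and 15.9 FPKM in dP, against 21.6, 19.8 and 25.6 FPKM in wP (log2 fold change -0.41 ± 0.11, adjusted p = 0.00468). In young leaves it averaged 15.6 FPKM in dY and 15.2 FPKM in wY, with overlap (adjusted p = 0.77). In mature leaves it had 21.1, 19.0 and 23.4 FPKM in dM, against 15.9, 14.2 and 15.1 FPKM in wM (0.46, adjusted p 0.000770). In R it averaged 19.6 FPKM in dR against 25.3 FPKM in the libraries labelled wR (-0.35, adjusted p = 0.00997). The groups did not overlap in P, M or R. ERDL6 and AT1G19450 encode closely related proteins, so reads shared between these genes could make their separate values uncertain, which was not examined. ERDL6 also overlaps AT1G75210 on the opposite strand over 57 bases. AT1G19450 averaged 10.4 FPKM in dP against 11.1 FPKM in wP, and 5.70 FPKM in dY against 11.3 FPKM in wY. It averaged 4.97 FPKM in dM against 7.14 FPKM in wM, and 17.0 FPKM in dR against 9.32 FPKM in the libraries labelled wR.

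The comparison of mature with young leaves in each genotype asks whether the transporters change with leaf age. In dpe2/phs1, 5 members were higher and 1 lower in dM than in dY (67.7% of all genes called, 26.5% higher and 41.2% lower), and in Col-0, 3 were higher and 3 lower in wM than in wY (44.0%, 18.8% higher and 25.2% lower). The median of the members was 0.19 in dpe2/phs1 and -0.016 in Col-0, beside -0.16 and -0.070 over all genes. The median over all genes in dM against dY moved to 0.046 under median-of-ratios scaling, a shift of more than 0.1, and with the gene length trend removed 8 members were higher and none lower in dM. In that fit 13694 of all 19575 genes were called, 50.1% of them higher. STP13 was higher in mature than in young leaves in both genotypes, by 2.27 ± 0.098 in dpe2/phs1 and 1.31 in Col-0 (adjusted p 2.16e-14 and 2.22e-10). STP1 was lower in both, with log2 fold changes of -0.64 in dpe2/phs1 and -1.05 in Col-0 (adjusted p 4.09e-05 and 8.71e-08), and its call in dpe2/phs1 was lost without the gene length trend (-0.32, adjusted p = 0.067). TMT1 (0.98), STP14 (0.70) and ERDL6 (0.41) were higher in dM than in dY, and in Col-0 STP7 (1.19) was higher and TMT2 (-0.49) and SUC4 (-0.44) were lower in wM than in wY. TMT1 in wM against wY (-0.36, adjusted p = 0.056) did not pass as deposited. It passed in a fit of these groups only (adjusted p = 0.0037), with a replicate block (0.049) and under limma-voom (0.049). Removal of the trend on listed or fitted length also made it pass (-0.26 in both, adjusted p = 0.028 and 0.022). In dM against dY, STP7 (0.17) and SUC4 (0.18) did not pass as deposited, but both passed under median-of-ratios scaling (0.41 and 0.39), quantile scaling (0.35 and 0.56) and removal of the trend on listed length (0.38 and 0.40). STP4 was higher in wM than in wY (0.28, adjusted p = 0.00834), and its call in dM against dY (0.20, adjusted p = 0.033) was lost in 4 of the 6 fits without a library. TMT2 did not pass the test in dM against dY (-0.14, adjusted p = 0.33), and it turned to a rise of 0.65 or 0.41, past the threshold, once the trend on listed or fitted gene length was removed, whereas under quantile scaling it was called lower (-0.36, adjusted p = 0.00579).

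**Figure D3:**
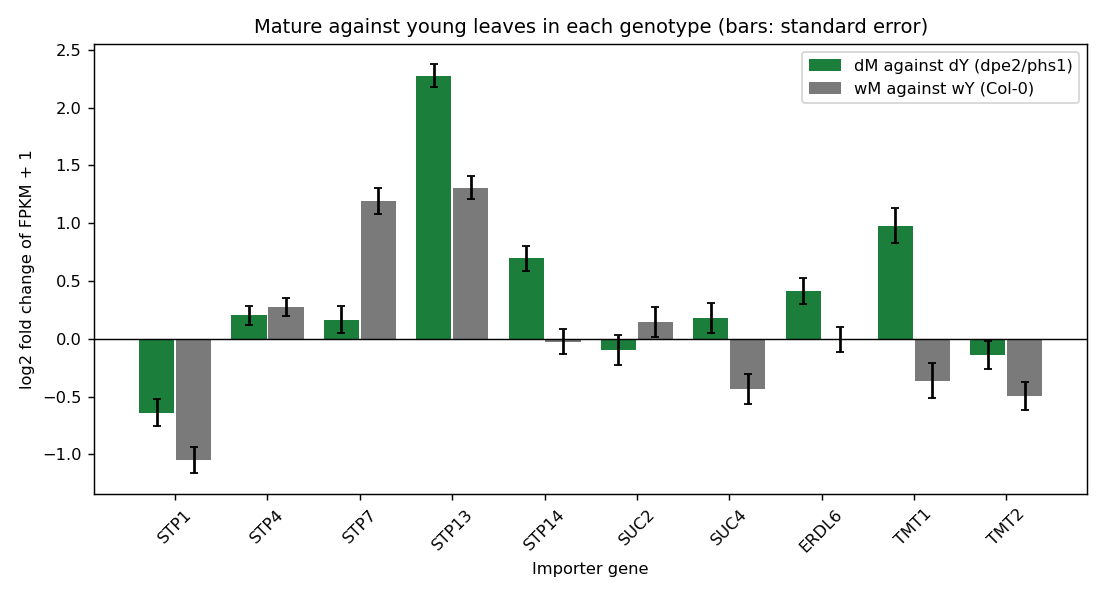
Log2 fold change of FPKM + 1 (y axis) in mature against young leaves for each transporter, in dpe2/phs1 (green, left) and Col-0 (grey, right), with the standard error of the limma fit. TMT1 stands at 0.98 in dpe2/phs1 and at -0.36 in Col-0, and STP7 at 0.17 in dpe2/phs1 and at 1.19 in Col-0.

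The mutant effect itself differed between M and Y for 7 of the 10 members in a test of the interaction (48.8% of all genes called, 20.8% higher and 27.9% lower). It was larger in M than in Y for TMT1 (1.34 ± 0.21, adjusted p 2.77e-05), STP13 (0.97, adjusted p 7.67e-06), STP14 (0.72, adjusted p 0.000598) and SUC4 (0.62, adjusted p = 0.00892). STP7 went the other way (-1.03, adjusted p 2.11e-05), with 12.5 FPKM in dY and 14.2 FPKM in dM, against 5.57 FPKM in wY and 14.0 FPKM in wM. For ERDL6 (0.42, adjusted p = 0.029) and STP1 (0.41, adjusted p = 0.039) the interaction was lost in 5 and 7 of the 12 fits without a library. For STP1 the interaction means a smaller fall in M than in Y. The interaction for TMT2 (0.35, adjusted p = 0.091) passed with a removed length trend (1.00, adjusted p 2.83e-05), and STP4 and SUC2 did not pass (adjusted p = 0.63 and 0.30). Without dY replicate 1, SUC2 was called in the interaction (-0.44, adjusted p = 0.022) and in dM against dY (-0.29, adjusted p = 0.027).

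The comparison of the Recovery Period with the Prior Period asks how shoot levels of dpe2/phs1 differ between these periods. Between dR and dP, 4 members were higher and none lower (35.6% of all genes called, 13.5% higher and 22.1% lower), with a median of 0.20 beside -0.10 over all genes. STP13 (1.501), STP1 (1.03) and STP4 (0.64) were higher in dR than in dP (adjusted p 1.27e-10, 4.40e-07 and 2.99e-06). SUC2 (0.37, adjusted p = 0.032) lost its call in 5 of the 6 fits without a library. TMT2, with 44.6 FPKM in dR and 45.4 FPKM in dP, and TMT1, with 36.0 and 34.0 FPKM in dR and dP, had overlapping libraries. TMT1 passed with the trend on listed or fitted length removed (0.24 and 0.25). ERDL6 (0.24) lay wholly higher in dR, and SUC4 (-0.31) and STP7 (-0.25) wholly lower, but none passed as deposited. In a fit of dR and dP only, ERDL6 and SUC4 passed. ERDL6 also passed under median-of-ratios scaling (0.35), quantile scaling (0.31) and removal of the trend on fitted length (0.35).

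**Figure D4:**
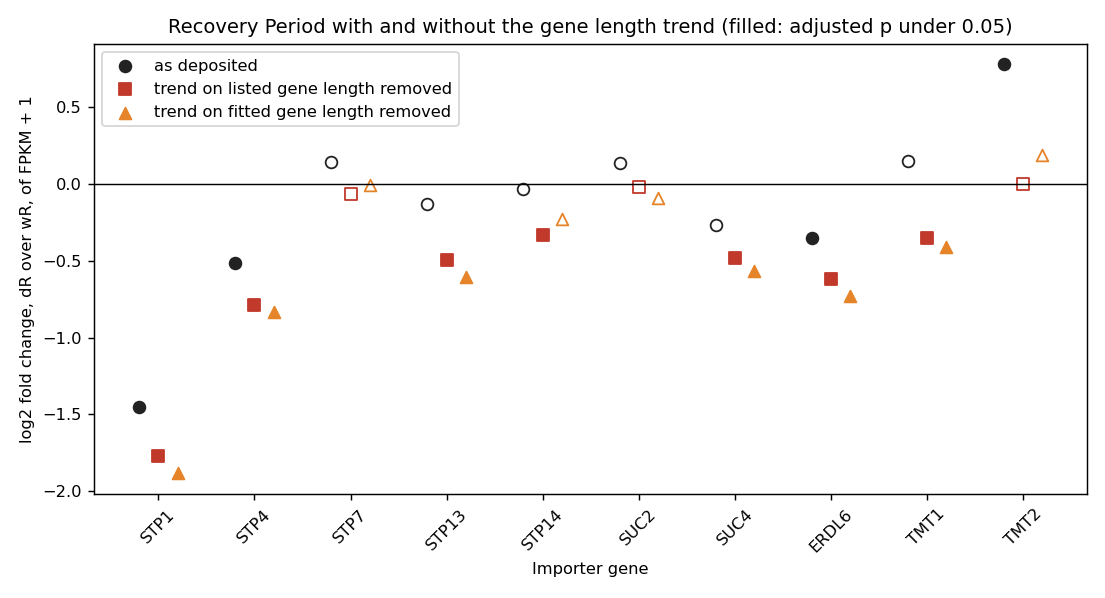
Log2 fold change of FPKM + 1, dR over wR (y axis), of each transporter as deposited (circles) and after the trend on listed (squares) or fitted (triangles) gene length was removed in each library, with filled symbols for an adjusted p under 0.05. TMT2 stands at 0.78, 0.00013 and 0.19 in these versions, and STP1 at -1.45, -1.77 and -1.88.

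For dR against the libraries labelled wR, the removal of the trend of expression on the listed gene length moved the value of every member down. In that fit, 7 members were lower and none higher in dR, compared with 3 lower and 1 higher as deposited. Of all 19575 genes, 10439 were called in that fit, 49.5% of them higher. STP1 (-1.77), STP4 (-0.79) and ERDL6 (-0.62) stayed lower, and STP13 (-0.49), SUC4 (-0.48), TMT1 (-0.35) and STP14 (-0.33) came past the threshold. With the lengths fitted to the FPKM steps, a setting chosen after the data were seen, 6 were lower, without STP14 (-0.23, adjusted p = 0.11). The correction on listed length made the disrupted genes lower in dR (DPE2 -0.40, adjusted p = 0.00247, and PHS1 -0.76, adjusted p 6.95e-06). STP1, STP4 and ERDL6 were called lower in all 3 versions, but ERDL6 lost its call under TPM scaling (-0.22, adjusted p = 0.11).

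Of 47 related sugar transporter genes (other STP, SUC, TMT, VGT, INT, PMT and ERD6-like genes), 31 passed the filter. Of these, dP had 12 higher and 7 lower than wP, dY had 20 higher and 3 lower than wY, dM had 22 higher and 2 lower than wM, and dR had 11 higher and 7 lower than the libraries labelled wR. Over all tested genes, 39.2% were called in P, 53.6% in Y, 69.1% in M and 56.8% in R. The median log2 fold change of the 31 was -0.016 in P, 0.64 in Y, 1.02 in M and 0.067 in R, beside 0.058, 0.15, 0.048 and 0.047 over all genes. AT5G18840, an ERD6-like gene, had the largest rise among the 31 in each period. It averaged 52.6 FPKM in dP against 0.424 FPKM in wP, 19.4 FPKM in dY against 0.107 FPKM in wY, 75.9 FPKM in dM against 0.332 FPKM in wM, and 9.72 FPKM in dR against 0.255 FPKM in the libraries labelled wR (log2 fold changes 5.23, 4.21, 5.85 and 3.10 ± 0.098). AT1G08890, also ERD6-like, averaged 37.99 FPKM in dP against 12.8 FPKM in wP and 43.8 FPKM in dY against 8.17 FPKM in wY (1.51 and 2.29). STP5 rose in dP (6.37 FPKM against 1.99 FPKM in wP). In mature leaves AT3G05400 averaged 17.9 FPKM in dM against 0.408 FPKM in wM, and the polyol and monosaccharide importer PMT5 averaged 206 FPKM in dM against 23.3 FPKM in wM. In the other direction, SFP1 (12.8 FPKM in dP against 24.6 FPKM in wP) and AT3G05160 (8.52 FPKM in dP against 13.9 FPKM in wP) fell in P. Both had higher means in the mutant leaves. SFP1 averaged 16.7 FPKM in dY against 8.54 FPKM in wY, and 77.7 FPKM in dM against 21.95 FPKM in wM. AT3G05160 averaged 21.6 FPKM in dY against 8.16 FPKM in wY, and 19.0 FPKM in dM against 11.5 FPKM in wM.

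Invertases split sucrose into the hexoses that STP and TMT proteins carry. Of 8 cell-wall and vacuolar invertase genes, 6 passed the filter. The vacuolar invertase VI2 was lower in the mutant in all periods as deposited. It averaged 14.9 FPKM in dP against 71.1 FPKM in wP, and 21.1 FPKM in dY against 62.6 FPKM in wY. It averaged 20.9 FPKM in dM against 61.7 FPKM in wM, and 26.2 FPKM in dR against 38.2 FPKM in the libraries labelled wR. The cell wall invertase CWINV1 averaged 5.35 FPKM in dY against 9.71 FPKM in wY and 12.8 FPKM in dM against 7.41 FPKM in wM, changes of -0.76 and 0.71 (log2). CWINV3 averaged 2.30 FPKM in dM against 12.8 FPKM in wM (-2.07). In all, dP had 1 invertase higher and 3 lower than wP, dY had 1 higher and 4 lower than wY, dM had 3 higher and 3 lower than wM, and dR had 2 lower than the libraries labelled wR, beside the same shares of all genes (39.2%, 53.6%, 69.1% and 56.8%).

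Markers of leaf senescence moved with the mature-leaf results. The summed FPKM of 6 such genes was 943 to 1156 in dM against 105 to 114 in wM, 140 to 198 in dY against 37.3 to 40.4 in wY, 55.6 to 64.3 in dP against 14.1 to 17.0 in wP, and 123 to 139 in dR against 163 to 215 in the libraries labelled wR. SAG12, the marker most specific to senescence, averaged 43.0 FPKM in dM and 0 FPKM in wM. Of the 6, 5 were higher and 1 lower in dM. The exception was WRKY53, at 11.02 FPKM in dM against 30.95 FPKM in wM. The sum, like STP13, was highest in dM, and the part of these markers in the level of STP13 or of any other transporter was not tested. Guard cell markers, which bear on STP1, summed to 32.7 to 40.0 FPKM in dY against 61.3 to 65.5 in wY and to 15.5 to 19.2 in dM against 46.1 to 50.8 in wM, with 4 and 6 of 6 markers lower. In P the sum was 123 to 132 in dP against 67.5 to 89.1 in wP, with 1 of 6 markers higher and 1 lower, while STP1 was lower in dP. The higher one was GC1, at 101 FPKM in dP against 49.3 FPKM in wP, and it made up most of both sums. In R the guard cell sum was 61.8 to 73.4 in dR against 57.4 to 67.8 in the libraries labelled wR. There 2 of 6 markers were higher and none lower, and STP1 was lower in dR. Over all tested genes, 39.2% were called in P, 53.6% in Y, 69.1% in M and 56.8% in R. The part of guard cell markers in the level of STP1 was not tested. Mesophyll markers were abundant in every library, from 19730 to 53360 summed FPKM, but they also moved with the mature-leaf results. Their sum was 19730 to 22730 in dM against 33460 to 34620 in wM, with 1 of 5 higher and 4 lower, and CA1, a carbonic anhydrase, averaged 159 FPKM in dM against 2475 FPKM in wM. Their part in the transporter levels was not tested either. The root hair gene EXP7 was at 0 in all libraries and COBL9 and RHD6 were at most 0.032 FPKM on average, but PYK10, a glucosidase abundant in roots, averaged 78.8 FPKM in dM against 0.206 FPKM in wM. Flower markers summed to at most 1.61 FPKM.

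Across the 24 libraries, which share 8 groups and their length trends, STP13 and STP14 followed each other most closely among the members (Pearson's r = 0.90 of log2(FPKM + 1)), followed by STP14 with TMT2 (0.80) and SUC4 with TMT2 (0.77). STP1 ran against STP7 (-0.66) and TMT2 (-0.62). Such values were common. Among 7478 named genes with a mean of at least 5 FPKM, 165 reached an r of at least 0.90 with STP13, 101 with STP14 and 26 with TMT2. Those most like STP13 were UGT72E1 (0.99), CEQORH (0.98) and AtPP2-A12 (0.98). STP14 was most like ADF5 (0.97), ABCI1 (0.97) and COL13 (0.96), and TMT2 most like PROC1 (0.95), RH14 (0.94) and GSTF12 (0.93). STP1 was most like DWF5 (0.94), GLT1, a chloroplast glucose translocator (0.92), and 5MMP (0.92). The nearest genes were SIB1, MPK2 and EVN for STP4 (0.94 to 0.96), ECT8, XTH22 and CCD1 for STP7 (0.93 to 0.94), HON5, ATMYB13 and LTP2 for SUC4 (0.86 to 0.88), and RPN6, NPF8.3 and DSK2A for TMT1 (0.86 to 0.90). ERDL6 reached 0.78 with SCE1, 0.76 with PER67 and 0.74 with BLH9. SUC2 had no close partner, as its best matches ZEP, PER32 and MIR167D stood at 0.57 to 0.61. These correlations are descriptions with no test.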

How the data were processed

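Total RNA was extracted with Trizol, and strand use of the library kit is not stated. Per the labels and the study's methods, the authors aligned paired-end reads with HISAT2 to TAIR10, counted them with featureCounts and deposited FPKM per gene for each library. Tool versions are not given in the sources used here. Whole fragments were recovered from the FPKM steps. With lengths fitted to these steps, which partly sets the result, 100% of nonzero values came out whole within 0.01 fragments, and with the listed lengths 55.8%. Totals ran from 17504383 to 27859805 per library.

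Genes with a mean of at least 1 FPKM in at least 1 group (19575) were tested with limma 3.58.1 in R 4.3.3 on log2(FPKM + 1), with 1 mean per group over all 24 libraries, a mean-variance trend and Benjamini-Hochberg adjustment over all tested genes. The code was tested on simulated data. Alternatives were a pseudocount of 0.1, no filter (26453 genes), a filter of 5 FPKM (15555 genes), median-of-ratios, quantile and TPM scaling, a replicate block, a fit restricted to the groups compared, removal of the loess trend on gene length (span 0.3), limma-voom run with the recovered fragments, and leaving out each library. The trend on fitted lengths and the contrasts of wR with wP and of the mutant effect in R and P were added after the values were seen.

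The members and lists were chosen with earlier results of these data known. Named were all 10 members, DPE2, PHS1, at most 3 rises and 3 falls per genotype comparison from the related transporters and the invertases, and the 3 genes most correlated with each member. AT1G19450, STP3, PYK10, CWINV1 and the overlapping genes are given for the limits and levels they bear on.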

Additional observations from a re-analysis of the deposited data

Results flagged for a closer look

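The mutant effect differed between mature and young leaves, in a test of the interaction (limma, log2 scale), for 7 of the 10 transporters. Of all tested genes, 48.8% were called in the same test. The effect in M minus that in Y was 1.34 for TMT1, 0.97 for STP13, 0.72 for STP14, 0.62 for SUC4, 0.42 for ERDL6, 0.41 for STP1 and -1.03 for STP7. The calls of ERDL6 and STP1 were lost in 5 and 7 of the 12 fits without a library. For TMT1 the direction itself differed, with a rise in dM against wM and a fall in dY against wY.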

How the results depend on the processing

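The count of members called stayed within 1.5 times its value in every comparison and setting tried, except for dR against wR, where removal of the gene length trend gave 7 in place of 4. Without single libraries these counts were 5 to 7 in P, 7 to 8 in Y, 7 in M, 4 to 5 in R, 5 to 6 for dM against dY, 6 for wM against wY, 3 to 4 for dR against dP and 5 to 7 for the interaction. The members below were not called as deposited except where the text above says so, and the cause of each turn was not tested. Under median-of-ratios scaling the direction turned for ERDL6 in Y (-0.12) and in wM against wY (0.10), STP7 in M (-0.011), SUC2 (0.16) and TMT2 (0.12) in dM against dY, STP14 in wM against wY (0.065), STP4 in the interaction (0.064) and TMT2 in dR against dP (0.090). Under quantile scaling it turned for STP4 (-0.026) and ERDL6 (-0.18) in Y, STP4 (-0.072), STP7 (-0.081) and SUC2 (-0.16) in M, STP7 in R (-0.041), STP14 (0.086) and ERDL6 (0.035) in wM against wY and TMT2 in dR against dP (0.051). Under TPM scaling it turned for STP7 in M (-0.046) and for STP13 (0.0073), STP14 (0.096) and PHS1 (0.018) in R. With the trend on listed length removed it turned for ERDL6 in Y (-0.11), STP7 (-0.064), SUC2 (-0.021), TMT1 (-0.35) and DPE2 (-0.40) in R, SUC2 (0.10) and TMT2 (0.65) in dM against dY, STP14 (0.042) and ERDL6 (0.060) in wM against wY, STP4 in the interaction (0.12) and TMT2 in dR against dP (0.25). With fitted lengths, chosen after seeing the data, it turned for ERDL6 in Y (-0.073), STP7 in M (-0.040), STP7 (-0.0039), SUC2 (-0.089), TMT1 (-0.41) and DPE2 (-0.48) in R, SUC2 (0.12) and TMT2 (0.41) in dM against dY, STP14 (0.062) and ERDL6 (0.094) in wM against wY, STP4 in the interaction (0.11) and TMT2 in dR against dP (0.16). Leaving out single libraries gave both signs for ERDL6 in Y (-0.029 to 0.12) and in wM against wY (-0.076 to 0.071), PHS1 (-0.45 to 0.15), STP14 (-0.095 to 0.049) and TMT1 (-0.070 to 0.36) in R, STP14 in wM against wY (-0.095 to 0.024), STP7 in M (-0.031 to 0.072) and P (-0.092 to 0.011), SUC2 in dM against dY (-0.29 to 0.057) and TMT2 in dR against dP (-0.043 to 0.0063). Same-numbered libraries did not pair, and the replicate block changed 1 call of a member, TMT1 in wM against wY (-0.36, adjusted p = 0.049). Median-of-ratios scaling moved the median of all genes in Y to 0.0099, against 0.15 as deposited, and the share of called genes that were higher to 49.6%, against 64.5%. It likewise moved that share to 49.5% in P (62% as deposited), 53% in dM against dY (39.1%), 53.3% in wM against wY (42.8%) and 53.5% in dR against dP (38%), and TPM scaling moved it to 66% in R (55.7%).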
